A study of Mus musculus with 4 samples.

Results

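The S100 and annexin genes of blood monocytes are described here, as 10 transcripts taken from the deposited table by symbol. They were S100a4, S100a6, S100a8, S100a9, S100a10, S100a11, S100a13, Anxa1, Anxa2 and Anxa5, 10 of the 23995 gene symbols listed, and all 10 were among the 10240 genes with an FPKM (fragments scaled by transcript length and by the size of the library) of at least 1 in at least 1 library. The libraries were made from Ly6Clo and Ly6Chi monocytes sorted from mouse blood, and the study asked what loss of the transcription factor RBP-J does to these subsets. Control mice were Rbpj+/+ Lyz2 cre/cre and are titled WT in the labels. RBP-J-deficient mice were Rbpj fl/fl Lyz2 cre/cre, so Cre stood under the Lyz2 promoter, which is active in myeloid cells, in all 4 groups. The mice of the study were matched for sex and age and were between 7 and 12 weeks old. Each of the 4 groups held 1 library, and the number of mice behind a library is not given in the sources used here. No difference below therefore has a replicate check, no p-value was computed, and each sentence compares single libraries. Depth is unknown, because the values are FPKM, and no counting interval can be given. In bulk samples, fewer cells of a type and less RNA per cell cannot be told apart.

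S100 proteins are small calcium sensors with paired EF-hand loops that mostly act as dimers. S100A8 and S100A9 form calprotectin, which phagocytes store in the cytosol and release as an alarm signal through TLR4, and S100A10 binds annexin A2 at the membrane. Annexins bind acidic membrane phospholipids when calcium rises, and annexin A1 also acts outside the cell on formyl peptide receptors. In mice, S100a8, S100a9, S100a4 and S100a6 are widely used to mark classical Ly6Chi monocytes and neutrophils.

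Sequence at the start sites is shown for 4 of the genes, since RBP-J binds DNA and these genes differed between the genotypes to different degrees. RefSeq promoter windows on GRCm38.p6, 250 bases before to 50 after the start site, were used for 9 of the 10 genes, all but S100a10. The RBP-J core TGGGAA was searched on both strands, as were TATAAA for the TATA box and TTNNGNAA for C/EBP. In the 3 upstream sequences that follow, each of 250 bases and ending at the base before the start site, capitals mark matches to TGGGAA or TATAAA on either strand. They lie at chr3:90612644-90612893 (plus strand), chr3:90668821-90669070 (plus strand) and chr19:20390672-20390921 (minus strand).
S100a6: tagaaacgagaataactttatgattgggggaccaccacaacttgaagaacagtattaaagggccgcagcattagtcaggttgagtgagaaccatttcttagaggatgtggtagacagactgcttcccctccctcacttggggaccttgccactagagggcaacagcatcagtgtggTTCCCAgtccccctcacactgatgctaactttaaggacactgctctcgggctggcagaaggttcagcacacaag
S100a8: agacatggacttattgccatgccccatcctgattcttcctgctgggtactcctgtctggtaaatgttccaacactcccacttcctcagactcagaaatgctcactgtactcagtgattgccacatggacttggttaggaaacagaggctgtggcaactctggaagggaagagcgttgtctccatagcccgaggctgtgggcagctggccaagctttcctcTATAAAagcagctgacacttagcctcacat
Anxa1: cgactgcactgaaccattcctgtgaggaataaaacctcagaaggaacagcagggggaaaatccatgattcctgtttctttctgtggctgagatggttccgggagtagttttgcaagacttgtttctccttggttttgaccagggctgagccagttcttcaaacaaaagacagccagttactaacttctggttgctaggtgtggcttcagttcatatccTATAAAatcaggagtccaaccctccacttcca
The fourth sequence is the stretch of 104 bases that separates S100a13 from the oppositely oriented S100a1, at chr3:90514331-90514434 on the plus strand, without capitals.
S100a13: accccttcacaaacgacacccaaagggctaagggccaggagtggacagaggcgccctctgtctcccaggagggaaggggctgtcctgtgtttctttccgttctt
A TGGGAA match was found in the windows of 4 of the 9 genes, namely S100a4, S100a6, S100a9 and Anxa2, and for 28.3% of the 27025 genes of the table (25.6% of its 32851 windows). The TATA box letters were found for 5 of the 9 genes, against 15.7% of all genes (13.6% of windows), and TTNNGNAA for 3 of the 9 (S100a8, S100a9 and Anxa1), against 44.1% of all genes (40.7% of windows). The TATA box match began 30 bases before the start site of S100a8, 31 before that of S100a4 and 32 before that of Anxa1. The matches of S100a9 and Anxa2 lay elsewhere, at the start site itself and 17 bases before it. Of the genes with a TGGGAA match, S100a6 was more than 2-fold higher in RBP-J-deficient Ly6Clo monocytes, and S100a4, S100a9 and Anxa2 were not. Of the genes with a window and no such match, S100a13, Anxa1 and Anxa5 were more than 2-fold higher there, and S100a8 and S100a11 were not. A match describes letters in a window and does not show a binding site.

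Rbpj itself had an FPKM of 8.30 in the control Ly6Clo library against 2.43 without RBP-J, and of 14.4 against 2.85 in Ly6Chi monocytes. Ly6c2, the gene of the sorting antigen, followed the subset labels, with 10.9 and 78.3 in Ly6Clo and 2013 and 1594 in Ly6Chi monocytes. Other blood cells left traces that differed between the Ly6Clo libraries. B cell markers (6) summed to 68.0 in control and 102 in RBP-J-deficient Ly6Clo cells. Among them Cd22 was at 12.9 and 0.56 and Cd79b at 41.9 and 100.2. The 5 erythroid markers measured summed to 1583 and 276. Most of the control sum was Hba-a2, at 1171 and 89.4, and Hbb-bs went the other way, at 11.1 and 54.6. None of 6 T cell markers reached 1 in any library. Actb, which every cell uses, has a value of 0 for each RBP-J-deficient library, against 27260 for control Ly6Clo and 22795 for control Ly6Chi cells, so a 0 in the table can be a failed estimate. The part of these features in the differences below was not tested.

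The 10 transcripts were at an FPKM of 22.7 or more in every library, but their ranks among the expressed genes varied widely. The lowest rank was 3158, that of S100a9 in RBP-J-deficient Ly6Clo cells. Together they made up 0.331% of the summed FPKM of control Ly6Clo monocytes, 0.486% of RBP-J-deficient Ly6Clo, 1.14% of control Ly6Chi and 1.02% of RBP-J-deficient Ly6Chi monocytes. The highest level in control Ly6Clo cells was that of Anxa2, at an FPKM of 506, and the lowest that of S100a9, at 34.4. S100a4 led in control Ly6Chi cells at 1407, where it ranked 55 among the expressed genes. In both RBP-J-deficient libraries Anxa1 led, at 941 in Ly6Clo and 1380 in Ly6Chi monocytes. The lowest level was again S100a9 in RBP-J-deficient Ly6Clo cells, at 22.7, and in RBP-J-deficient Ly6Chi cells, at 144, whereas in control Ly6Chi cells it was S100a13, at 106.

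**Figure D1:**
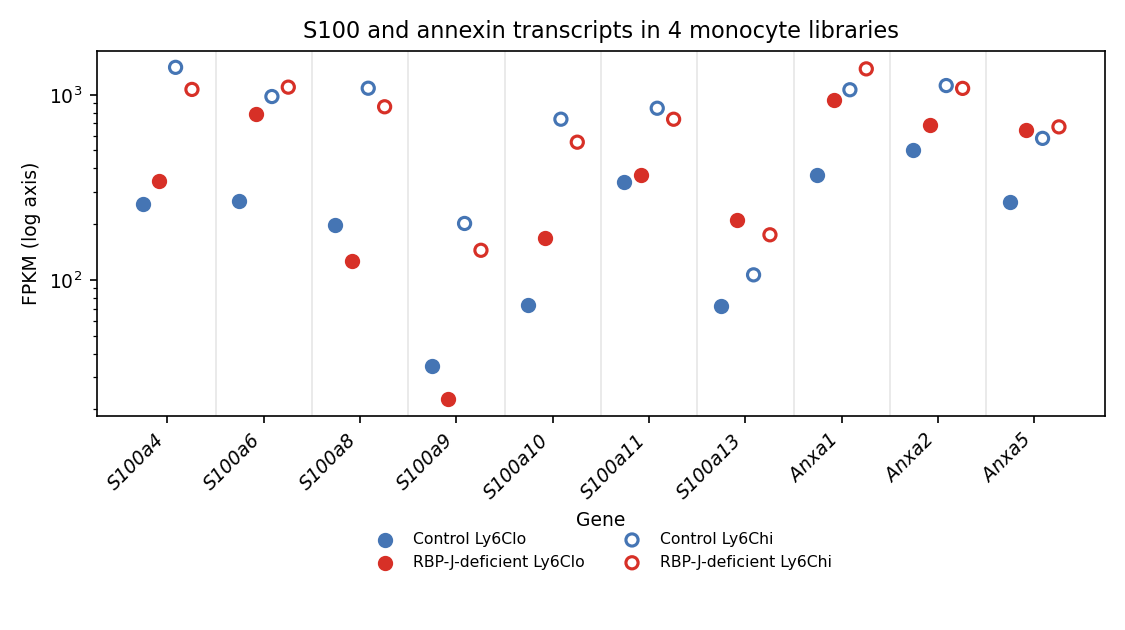
FPKM of the 10 transcripts (log axis) in the 4 libraries, 1 point per library; blue is control, red is RBP-J-deficient, filled points are Ly6Clo and open points Ly6Chi. S100a8 and S100a9 stand lowest in the RBP-J-deficient Ly6Clo library, at 126 and 22.7, while S100a6 stands there at 788 against 267 in the control.

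The first comparison asked how RBP-J-deficient Ly6Clo monocytes differed from control Ly6Clo monocytes. Differences are log2 ratios of FPKM plus 1, and a transcript was called different at 2-fold. Of the 10 transcripts, 5 were at least 2-fold higher without RBP-J (S100a6, S100a10, S100a13, Anxa1 and Anxa5) and 0 were lower, where 8.97% of the 10240 expressed genes were higher and 11.1% lower. The median log2 ratio was 0.82 over the 10 transcripts and 0.02 over all expressed genes. At the fold part of the study's thresholds, 5.7-fold higher or 0.2-fold, without the p-value the study also required, 0 of the 10 passed, and 0.273% and 0.674% of expressed genes did.

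Among the S100 genes, S100a6, whose protein binds annexins and calcyclin-binding protein, was listed at an FPKM of 267 in control Ly6Clo, 788 in RBP-J-deficient Ly6Clo, 979 in control Ly6Chi and 1100 in RBP-J-deficient Ly6Chi monocytes. Only the control Ly6Clo library was low, and the Ly6Clo difference was 2.94-fold, a log2 ratio of 1.56. S100a13, which takes part in the release of proteins that lack a signal peptide, was listed at 72.1, 209, 106 and 175 in the same order of libraries. Both RBP-J-deficient libraries stood above both control libraries, with log2 ratios of 1.53 in Ly6Clo and 0.71 in Ly6Chi cells. S100a10, the annexin A2 partner that also brings plasminogen to the cell surface, was listed at 73.2, 169, 738 and 555. It was 2.29-fold higher in the RBP-J-deficient Ly6Clo library, and both Ly6Chi libraries were far above both Ly6Clo libraries.

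The 2 annexins past 2-fold were alike in size. Anxa1, the ligand of formyl peptide receptors, was listed at 370.5 in control Ly6Clo, 941 in RBP-J-deficient Ly6Clo, 1065 in control Ly6Chi and 1380 in RBP-J-deficient Ly6Chi monocytes, 2.53-fold higher in the RBP-J-deficient Ly6Clo library. Anxa5, whose protein binds phosphatidylserine, was listed at 262, 647, 581 and 671, and was 2.46-fold higher there. For Anxa5 the RBP-J-deficient Ly6Clo library stood above the control Ly6Chi library in FPKM, but below it with the sums of the libraries set equal. Anxa2, which organises membrane and cytoskeleton with S100A10, was listed at 506, 687, 1122 and 1083, with a log2 ratio of 0.44 in Ly6Clo cells.

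The other S100 genes did not reach 2-fold by genotype. S100a4, a regulator of cell motility through myosin, was listed at 256, 343, 1407 and 1069, with log2 ratios of 0.42 in Ly6Clo and -0.40 in Ly6Chi cells. S100a11, which binds annexin A1, was listed at 337, 369, 846 and 738, with log2 ratios of 0.13 and -0.20. The calprotectin genes stood apart from the rest in sign. S100a8 was listed at 197, 126, 1085 and 861, with a log2 ratio of -0.64 in Ly6Clo monocytes, and S100a9 at 34.4, 22.7, 202 and 144, with -0.58. They were the only 2 of the 10 transcripts with a ratio below 0 in Ly6Clo cells.

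**Figure D2:**
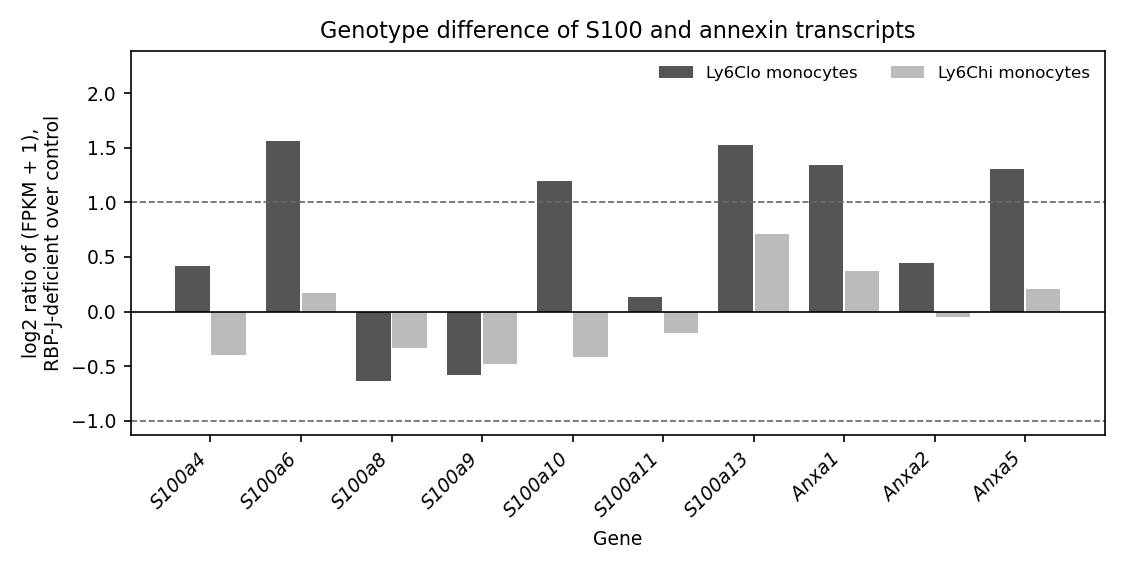
log2 ratio of FPKM plus 1, RBP-J-deficient over control, for each transcript in Ly6Clo (dark) and Ly6Chi (light) monocytes, 1 library against 1; dashed lines mark 2-fold. The dark bars of S100a6, S100a10, S100a13, Anxa1 and Anxa5 pass the upper line and no light bar does.

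The size of these differences has to be read beside the length and GC content of the transcripts and the scaling of the libraries. The 7 S100 transcripts are between 498 and 783 bases long, and over the 418 genes of similar length (at most 1000 bases, averaging 5 FPKM or more) the median log2 ratio was 0.61 in this comparison and 23.7% were at least 2-fold higher. Of the 1150 genes averaging 100 FPKM or more, 17.2% were. With the trend on length subtracted, 2 transcripts were at least 2-fold higher (Anxa1 and Anxa5) and 2 lower (S100a8 at -1.37 and S100a9 at -1.30). Among genes averaging 5 FPKM or more, the median ran from 0.50 at up to 42% GC to -0.52 above 58%. With the GC trend alone subtracted, 4 transcripts were at least 2-fold higher, and Anxa1 was at 0.98. With GC and length trends subtracted, the 2 higher were S100a13 at 1.07 and Anxa5 at 1.17, and Anxa1 was at 0.82. With the sums of the libraries set equal, which moved the median of all genes by -0.29, 3 were higher, and 5.24% of expressed genes were higher and 17.7% lower. The ratios of S100a6, S100a10, S100a13, Anxa1 and Anxa5 were above 0 under every alternative tried, with lowest values of 0.96, 0.49, 0.90, 0.82 and 0.94. The sign of S100a4 and S100a11 changed with the length trend subtracted, to -0.30 and -0.59, and that of S100a11 also with the sums set equal, to -0.17.

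**Figure D3:**
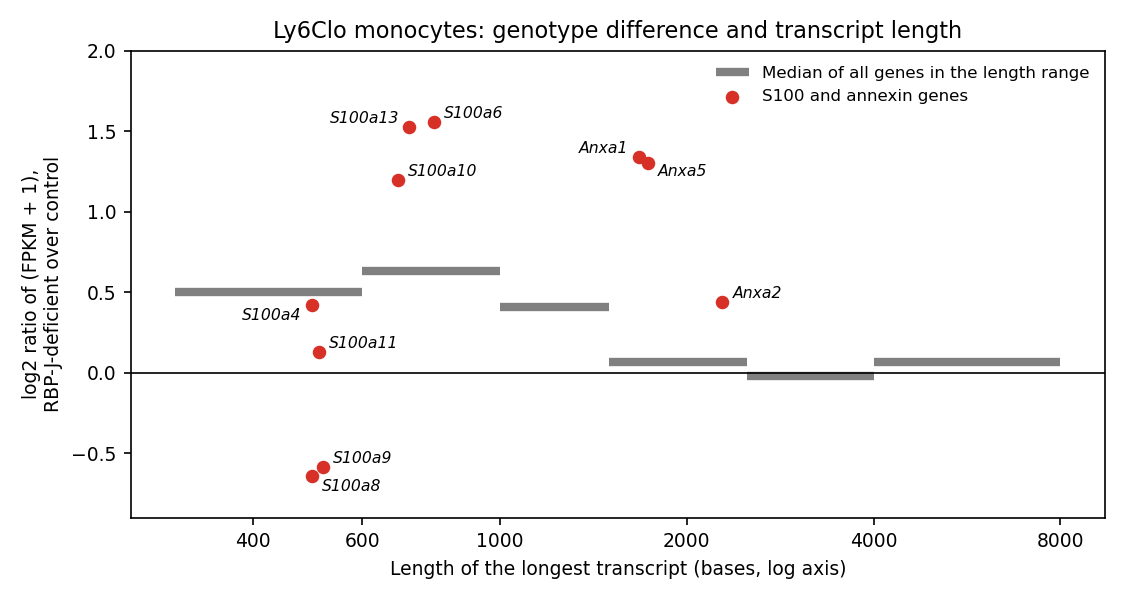
log2 ratio of FPKM plus 1 in Ly6Clo monocytes, RBP-J-deficient over control, against the length of the longest transcript (log axis); red points are the 10 transcripts and grey bars the median of all genes averaging 5 FPKM or more in each length range, the outer ranges being open. The bars up to 600 bases and from 600 to 1000 bases stand at 0.50 and 0.63, with S100a4 and S100a11 below the first and S100a6, S100a10 and S100a13 above the latter.

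In Ly6Chi monocytes the genotypes differed less. Of the 10 transcripts, 0 were at least 2-fold higher and 0 lower in the RBP-J-deficient library, where 2.64% of expressed genes were higher and 4.56% lower. The median log2 ratio was -0.12, with 4 transcripts above 0 and 6 below. The largest was S100a13, at 1.64-fold. S100a10, at a log2 ratio of -0.41, and S100a9, at -0.48, were the lowest. The signs in the 2 subsets were opposite for S100a4, S100a10, S100a11 and Anxa2, higher in the RBP-J-deficient library in Ly6Clo cells and lower in Ly6Chi cells, and these differences between subsets were not tested. In Ly6Chi cells the sign of Anxa2 changed with GC and length trends subtracted, to 0.01, and that of S100a6, at 0.17, with the length trend subtracted, to -0.06.

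The third comparison set Ly6Chi against Ly6Clo monocytes within each genotype. In control mice, 9 of the 10 transcripts were at least 2-fold higher in Ly6Chi monocytes, all but S100a13, and 0 were lower, where 7.75% of expressed genes were higher and 5.21% lower. S100a10 differed most, 9.96-fold, followed by S100a9 at 5.72-fold, S100a4 at 5.48-fold and S100a8 at 5.48-fold. S100a6 followed at 3.65-fold, Anxa1 at 2.87-fold, S100a11 at 2.51-fold, Anxa2 at 2.22-fold, Anxa5 at 2.21-fold and S100a13 at 1.47-fold. The count of 9 was the same under all rescalings and trend subtractions. S100a10 and S100a9 were past 5.7-fold, as were 0.996% of expressed genes.

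In RBP-J-deficient mice, 4 of the 10 were at least 2-fold higher in Ly6Chi monocytes and 0 lower, where 10.6% of expressed genes were higher and 8.41% lower. These were S100a8 at 6.78-fold, S100a9 at 6.15-fold, S100a10 at 3.27-fold and S100a4 at 3.11-fold. S100a8 and S100a9 were past 5.7-fold, as were 0.596% of expressed genes. S100a11 lay just under 2-fold, at a log2 ratio of 0.9994, and was past it under 7 of 9 alternatives. Anxa5 was nearly level between the subsets, at a log2 ratio of 0.05, and S100a13 was lower in Ly6Chi cells, at -0.26. Over the 10 transcripts the median log2 ratio was 1.70 for control mice against 0.83 for RBP-J-deficient mice. All 4 comparisons draw on the same 4 libraries, so the subset ratios are not independent of the genotype ratios.

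**Figure D4:**
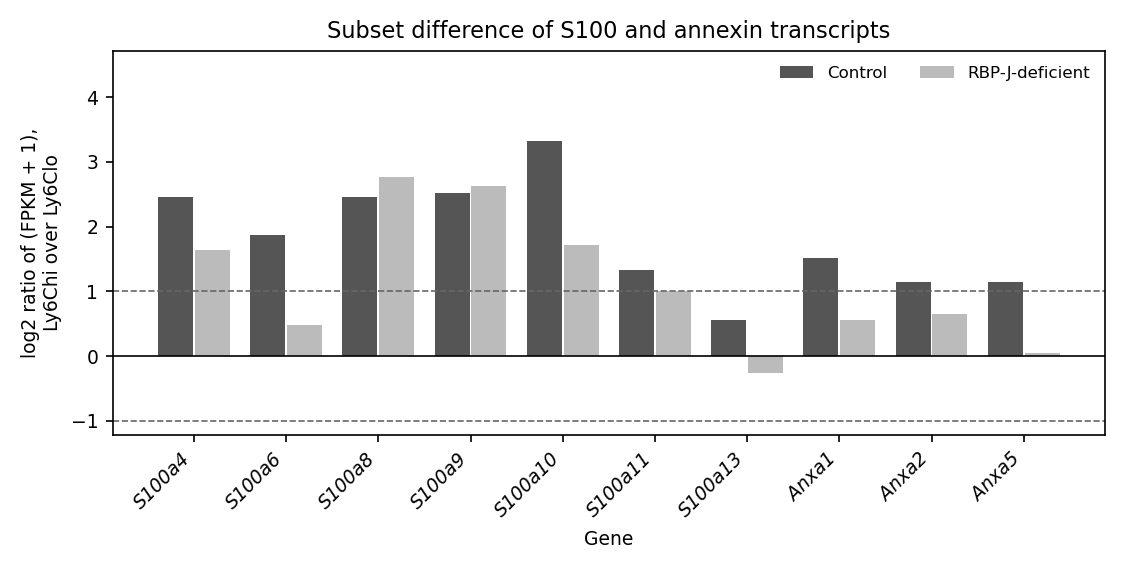
log2 ratio of FPKM plus 1, Ly6Chi over Ly6Clo, for each transcript in control (dark) and RBP-J-deficient (light) monocytes, 1 library against 1; dashed lines mark 2-fold. S100a8 and S100a9 are the 2 transcripts whose light bar is the taller, at 2.76 and 2.62, and the light bar of S100a13 is below 0.

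Where the RBP-J-deficient Ly6Clo library lay between the control Ly6Clo and control Ly6Chi libraries differed widely among the 10 transcripts. On the FPKM scale S100a6 had gone 73.2% of that way, Anxa1 82.1% and Anxa5 121%, past the Ly6Chi level. Anxa2 had gone 29.4%, S100a10 14.4%, S100a4 7.54% and S100a11 6.25%. S100a8 and S100a9 lay outside on the other side, at -8.00% and -7.03%. S100a13, whose control subsets differed little, gave 400.4%. These shares depend on the scaling: with the sums of the libraries set equal (TPM), S100a6 had gone 51.6%, Anxa1 55.7% and Anxa5 80.8%, short of the Ly6Chi level, Anxa2 8.11%, S100a10 9.49% and S100a4 1.87%, and S100a11 lay at -7.41%. S100a8 and S100a9 stayed below 0 and S100a13 was at 277%. On the FPKM scale, Ly6c2 had gone 3.36% of the way and Chil3 3.85%, and Ccr2, the chemokine receptor of Ly6Chi monocytes, 63.5%. The shares are of a linear difference in FPKM, so a small share can go with a large fold change. Between the Ly6Clo libraries Ly6c2 was 6.64-fold higher without RBP-J, Chil3 2.13-fold and Ccr2 7.89-fold, beside 2.94-fold for S100a6.

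Ratios of partners within a library do not depend on the scaling of that library. S100a8 over S100a9, the calprotectin pair, was 5.73 in control Ly6Clo, 5.57 in RBP-J-deficient Ly6Clo, 5.38 in control Ly6Chi and 5.96 in RBP-J-deficient Ly6Chi monocytes, while each gene spanned 3.09 and 3.10 on the log2 scale over the same libraries. S100a10 over Anxa2 was 0.145, 0.246, 0.658 and 0.512 in the same order, so the transcript of S100A10 was below that of its partner in every library and nearest to it in Ly6Chi cells. Such a ratio can still carry a trend with transcript length, here 685 and 2280 bases. With the length trend subtracted, the Ly6Clo genotype log2 ratios were 0.56 for S100a10 and 0.45 for Anxa2, against 1.20 and 0.44 before. S100a6 over S100a11 was 0.793, 2.14, 1.16 and 1.49, highest in the RBP-J-deficient Ly6Clo library.

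S100a8 and S100a9 are also abundant in neutrophils, and S100a9 transcripts occur in platelets, so markers of both were read beside them. Of 12 neutrophil markers in the table, 5 were at an FPKM of 1 or more in control Ly6Clo, 5 in RBP-J-deficient Ly6Clo, 8 in control Ly6Chi and 9 in RBP-J-deficient Ly6Chi monocytes, with summed levels of 39.9, 31.4, 324 and 254. Most of the Ly6Chi sum was Mmp8, at 195 and 155. In Ly6Clo cells the markers did not share a direction by genotype. Csf3r, most of the control Ly6Clo sum, was at 30.4 in control and 6.50 in RBP-J-deficient cells, and Lcn2 and Cxcr2 were also lower. Retnlg was higher without RBP-J, at 4.33 and 12.2, as were Mmp8 and Prtn3. The granule genes Mpo, listed at 0 in all 4 libraries, and Ltf, at most 0.02, were at or near 0, and Camp was at 0 in all but the RBP-J-deficient Ly6Chi library, at 5.52. Other granule genes were present in Ly6Chi cells, Prtn3 at 29.5 in control and 25.0 in RBP-J-deficient cells, Lcn2 at 4.84 and 7.48, Ngp at 4.87 in the latter and Elane at 1.13 in the former. The 6 platelet markers summed to 131, 127, 383 and 314, so they too were higher in the Ly6Chi libraries, and Pf4 stood at 156 and 120 there. The part of neutrophil or platelet RNA in the subset difference was not tested.

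By distance of the centred log2 profile over the 4 libraries, within the 4837 genes averaging 10 FPKM or more, the gene most like S100a9 was S100a8, at 0.118, and S100a9 was in turn the nearest to S100a8. Next to S100a9 came Tubb1, a platelet tubulin, at 0.234, and Glipr2 at 0.265, and next to S100a8 came 1600014C10Rik at 0.274 and Tubb1 at 0.296. S100a10 was most like Cfb, a complement factor, at 0.263, then Ndrg1 at 0.295 and Tmem176a at 0.321. With 4 libraries such likeness is a description only.

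Of the 7 S100 genes, 5 lie in the main S100 cluster of chromosome 3 together with S100a1, and silent genes stand between them. From S100a13 the left ends of the genes lie 89.3 kb (S100a4), 98.5 kb (S100a6), 155 kb (S100a8) and 178 kb (S100a9) away, with S100a10 and S100a11 about 3041 and 3006 kb away. S100a14, S100a16, S100a2, S100a3, S100a5 and S100a7a, which lie between, were listed at 0.66 or less in every library. In Ly6Clo cells the genotype ratio was positive for S100a1, S100a13, S100a4 and S100a6 and negative for S100a8 and S100a9 at the far end. The sign of S100a4 depended on the processing, at -0.30 with the length trend and -0.55 with GC and length trends subtracted.

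**Figure D5:**
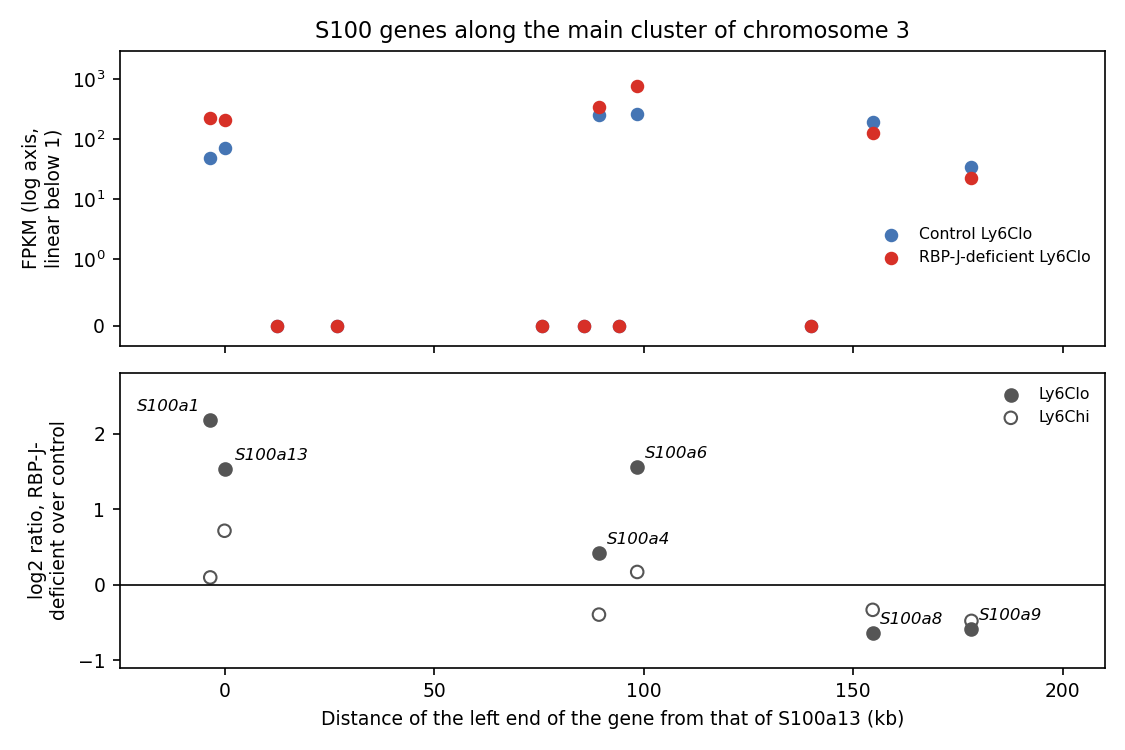
S100 genes of the main cluster by distance from S100a13 (kb): FPKM in the 2 Ly6Clo libraries (top, blue control, red RBP-J-deficient, log axis that is linear below 1) and log2 ratio by genotype in Ly6Clo (filled) and Ly6Chi cells (open) for genes with an FPKM of at least 1 (bottom). Ratios in Ly6Clo cells run from 2.18 at S100a1 to -0.64 at S100a8, with 6 silent genes between.

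S100a1, a calcium sensor best known from muscle, starts 104 bases from S100a13 on the other strand, the interval printed above. It was listed at 49.2 in control Ly6Clo, 227 in RBP-J-deficient Ly6Clo, 183 in control Ly6Chi and 196 in RBP-J-deficient Ly6Chi monocytes. In Ly6Clo cells it was thus higher by genotype together with its neighbour, at a log2 ratio of 2.18, but in Ly6Chi cells its ratio was 0.10 where that of S100a13 was 0.71. S100a1 over S100a13 was 0.683, 1.08, 1.72 and 1.12, so the pair did not keep a fixed ratio. How the counting treated strand is not given in the sources used here.

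Of the 19 other S100 and annexin genes in the table, 7 had an FPKM of at least 1 in a library. In Ly6Clo cells 3 of these 7 were at least 2-fold higher without RBP-J (S100a1, Anxa3 and Anxa4) and 0 lower, where 8.97% of expressed genes were higher and 11.1% lower. The rescalings and trend subtractions were not applied to this count. S100a1 is 677 bases long, and 23.7% of genes of at most 1000 bases (averaging 5 FPKM or more) were higher. Anxa4 was at a log2 ratio of 1.25, and setting the sums of the libraries equal moved the median of all genes by -0.29. Anxa3 was listed at 8.46, 43.8, 69.3 and 56.6, and Anxa4 at 38.3, 92.4, 84.5 and 97.6, both with a low control Ly6Clo library like Anxa1 and Anxa5. Anxa6, which binds membranes and cytoskeleton, went the other way, at 46.1, 25.9, 93.1 and 60.0, lower in both RBP-J-deficient libraries. Anxa7 ranged from 25.2 to 34.7 and Anxa11 from 2.91 to 5.45. In Ly6Chi cells, where 2.64% of expressed genes were higher and 4.56% lower, 0 of the 7 were 2-fold higher and 1 was lower, Anxa9, which was listed at 1.95 in the control and 0 in the RBP-J-deficient library.

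Receptors and binding partners of these proteins were read from a list of 22 genes, of which 16 had an FPKM of at least 1 in a library. In Ly6Clo monocytes 5 of the 16 were at least 2-fold higher without RBP-J and 2 lower, beside 8.97% and 11.1% of expressed genes. In Ly6Chi monocytes 3 were higher and 0 lower, beside 2.64% and 4.56%. Of the formyl peptide receptors, on which annexin A1 acts, Fpr1 was among the higher genes in both subsets and Fpr2 in Ly6Clo cells only. Fpr1 was listed at 59.5 in control Ly6Clo, 370.2 in RBP-J-deficient Ly6Clo, 6.82 in control Ly6Chi and 67.7 in RBP-J-deficient Ly6Chi cells, and Fpr2 at 27.8, 122, 17.3 and 29.4. Fpr1 was thus higher by genotype in both subsets, with log2 ratios of 2.62 and 3.14, whereas its ligand Anxa1 had 1.34 and 0.37. Fpr3 was at most 0.05.

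The receptors of calprotectin gave no common direction. Tlr4 was listed at 10.2 in control and 4.60 in RBP-J-deficient Ly6Clo cells, 0.499-fold and so just past the threshold, and at 7.18 in RBP-J-deficient Ly6Chi cells. Its co-receptors were not past 2-fold by genotype, Ly96 at 68.4, 103, 91.7 and 86.4 and Cd14 at 79.5, 148, 205 and 176. Cd36, a scavenger receptor that binds S100A8 and S100A9 with fatty acids, was listed at 426, 945, 26.9 and 137, higher by genotype in both subsets and lower in Ly6Chi cells. Bsg, a receptor of S100A9, ranged from 223 to 295, and Ager, the receptor for advanced glycation end products, was at most 1.11.

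Partners at the membrane and in plasminogen binding came next. Ahnak, a large scaffold protein bound by S100A10 and annexin A2, was listed at 21.5, 57.4, 76.0 and 81.0, with a log2 ratio of 1.38 in Ly6Clo and 0.09 in Ly6Chi cells. Plgrkt, a plasminogen receptor, was listed at 61.8, 132, 31.8 and 68.6, with a ratio of 1.08 in both subsets, and Plaur, the urokinase receptor, ranged from 370 to 498. Tgm2, a transglutaminase that crosslinks S100 proteins and annexins, was lower, at 53.1, 10.3, 6.04 and 2.74, with a ratio of -2.27 in Ly6Clo cells. The remaining 4 expressed partners, Sri, Cacybp, Myh9 and Plscr1, were within 2-fold by genotype, Sri (sorcin) coming nearest at 1.97-fold in Ly6Clo cells, and Plau, Plat, Dysf, Trpv5 and Kcnk3 were at most 0.15 in any library.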

How the data were processed

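RNA-seq was available for 4 libraries of sorted blood monocytes, 1 per group, with groups taken from the sample titles. The authors deposited 1 table of FPKM values with the columns and status codes of Cuffdiff, and the submitters' processing notes name CASAVA 1.8, TopHat2 2.1.0, Cufflinks 2.2.1 and build mm10. The table lists 23997 rows for each of 6 pairs of libraries. Its columns of fold changes, test statistics, p-values and q-values compare single libraries and were not used. A library's value was the same in every pair except for 19 values, none of a gene described here. Rows that share a symbol were summed (2 symbols were spelled as dates). The low values gave no shared step from which reads could be recovered, with at most 4 of 739 low genes sharing a ratio between libraries, so depth and counting error are unknown.

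Ratios were log2 of (FPKM + 1), which understates the change of low genes, and a call was 2-fold, set beside the study's fold thresholds of 5.7 and 0.2, used without its p-value. The background was the 10240 genes that reached an FPKM of 1 in any library. All 10 genes had status OK in every pair. The members, marker and partner lists were chosen with earlier results of these data known. Named were all 10 members, other S100 and annexin genes that reached an FPKM of 5 in a library, partners 2-fold different by genotype or acting as receptors, and the 3 nearest profiles of the 3 members of largest range; Anxa9, 9 partners outside this rule and the low or silent genes given by their range were named after their values were seen. Length and GC content were those of the longest GENCODE M21 transcript, found for 94.9% of background genes, and trends were lowess fits (fraction 0.3, 3 iterations) over 6086 genes averaging 5 FPKM or more. Positions are those of the table, written from 1. The scripts ran in Python 3.11.15 with pandas 2.3.3 and numpy 2.4.6, and the trends were fitted with statsmodels 0.14.6. The subtraction of the length trend, with the 2-fold call after it, was tested on simulated data with known fold changes. The other steps were not tested in this way. No count model was fitted and no sample was left out.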

Additional observations from a re-analysis of the deposited data

Results flagged for a closer look

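The genotype difference had opposite signs in the 2 subsets for 4 of the 10 genes, higher without RBP-J in Ly6Clo and lower in Ly6Chi monocytes. The log2 ratio in Ly6Clo minus that in Ly6Chi monocytes was 1.61 for S100a10, 0.82 for S100a4, 0.49 for Anxa2 and 0.33 for S100a11. The sign in Ly6Clo monocytes changed for S100a4 and S100a11 under some alternatives, as did the sign in Ly6Chi monocytes for Anxa2, whereas S100a10 had opposite signs under every alternative tried. For S100a13 the subset difference had opposite signs in the genotypes, and the log2 ratio of Ly6Chi over Ly6Clo was 0.81 larger in control than in RBP-J-deficient mice. With 1 library per group none of these differences was tested.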

How the results depend on the processing

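No paired analysis was possible because each group holds 1 library, and for the same reason no replicate could be left out. With no test and no replicate spread, a log2 ratio or median was taken as unchanged when it kept its sign and its side of 2-fold and moved by less than 1.5-fold, and a count when it stayed within 1.5 times. Of the 616 values under alternatives, 540 met this and 76 did not, and 0 calls changed sign. Of the 360 single-gene ratios under alternatives, 9 changed sign, none of them at least 2-fold as reported, and 23 crossed 2-fold.

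For RBP-J-deficient over control in Ly6Clo monocytes, the count of 5 transcripts at least 2-fold higher became 3 after rescaling to TPM, 2 after the same rescaling without Actb, 2 with the length trend subtracted and 2 with GC and length trends subtracted. The count of 0 lower became 2 with the length trend and 2 with both trends subtracted (S100a8 and S100a9), and 1 at a threshold of 1.5-fold. At the study's thresholds the count higher was 0. For Ly6Chi monocytes, the count of 0 higher became 1 at 1.5-fold (S100a13). For Ly6Chi over Ly6Clo, the study's thresholds left 2 of 9 transcripts in control and 2 of 4 in RBP-J-deficient monocytes, and the median of 0.83 in the latter became 1.04 after rescaling to TPM, with or without Actb, and 1.19 with both trends subtracted. The 3 trend subtractions and the rescaling without Actb were chosen after seeing the data. The cause of these shifts was not tested.

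Rescaling to TPM left 22.9% of called background genes on the higher side in Ly6Clo monocytes, against 44.8%, and 71.0% against 55.7% in the RBP-J-deficient subset comparison. It moved the median of all genes by -0.29 and 0.20 in these comparisons, and without Actb by -0.34 and 0.20. The share of background genes called moved with the filter, the pseudocount and the scaling: in Ly6Clo monocytes 3.83% were higher with no filter, 12.7% and 4.99% under pseudocounts of 0.1 and 5, and 4.72% after rescaling to TPM without Actb. Depth, being unknown, sets no limit that can be stated.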
